A study of Homo sapiens with 2 samples.

Results

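The heat shock protein genes described here are the genes of a deposited expression table whose symbols begin with HSPA, HSPB, HSPD, HSPE, HSPH or HSP90. HSPG2 and HSPBAP1, which are not heat shock proteins, are left out by the same rule. It found 7 of the table's 2046 genes: the small heat shock proteins HSPB1 and HSPB8, the cytosolic HSP70 and HSP110 members HSPA2, HSPA12A and HSPH1, and the mitochondrial chaperonin genes HSPD1 and HSPE1. The study sequenced RNA of MDA-MB-231, a human triple-negative breast cancer cell line, in a question about how monomeric EGFR activates STAT3. One library came from wild-type cells, whose genotype is labelled TAMER+/+, and the other from knockout cells labelled TAMER-/-, with TMEM25 named in the series design as the gene removed. Both were grown in DMEM with serum, and neither was labelled as heat-shocked or drug-treated. Whether the knockout is a clone or a pool is not given in the sources used here.

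Each genotype had 1 library, so no value below has a replicate error and no test between genotypes was made. All 2046 genes had a knockout value of at least 1 and a deposited ratio of knockout to wild type of at least 2. That the 7 genes were higher in the knockout library is therefore a property of the table, not a result about heat shock proteins. What the table can show is how far each gene stood above that limit, its level, and how the members compared with each other and with the other listed genes. TMEM25 was not among the listed genes and was not analysed here, so the knockout could not be checked on its RNA. Which library is the knockout, and so every direction given here, was read from how the value, read and ratio columns are headed, since the log2 columns are headed the other way round. None of 6 markers of the mesenchymal-like state of this line was listed (VIM, CD44, AXL, CAV1, MSN and FN1). The line's identity could therefore not be checked on them. Of 10 luminal breast markers, 3 were listed, and their values are given below. Over the listed genes there were 1046999 wild-type and 4138956 knockout reads, which is part of each library and not its depth.

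Heat shock proteins are molecular chaperones that keep other proteins folded. Small heat shock proteins bind unfolding proteins without using ATP, HSP70 proteins fold them in cycles of ATP hydrolysis, and HSP110 proteins recharge HSP70 by exchanging its nucleotide. In mitochondria, HSPD1 forms the barrel-shaped chaperonin HSP60 and HSPE1 its lid, HSP10. Stress releases the transcription factor HSF1, which binds heat shock elements, runs of inverted GAA units in the promoters of many of these genes. Cancer cells often hold several of them at a high level without any heat.

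The promoter sequences are shown first, because the 7 genes share a name and a protein role rather than a position. RefSeq windows on GRCh38.p14, from 250 bases before to 50 bases after a start site, were found for all 7 genes and gave 9 windows. They were searched on both strands for the 2-unit heat shock element, GAANNTTC or TTCNNGAA, and for the 3-unit element, GAANNTTCNNGAA or its reverse complement TTCNNGAANNTTC. A 3-unit match contains 2-unit matches that overlap it. The sequences below are the 250 bases before the start site of the 3 genes with a match and of HSPE1, which faces HSPD1, written 5′ to 3′ on the gene's strand with matched bases in capitals.
HSPB1, chr7:76302423-76302672, plus strand: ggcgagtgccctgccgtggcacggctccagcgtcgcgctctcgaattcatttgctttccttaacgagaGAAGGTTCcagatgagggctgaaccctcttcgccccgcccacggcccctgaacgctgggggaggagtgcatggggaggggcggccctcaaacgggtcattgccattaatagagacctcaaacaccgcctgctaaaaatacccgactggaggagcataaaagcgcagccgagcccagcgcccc
HSPB8, chr12:119178681-119178930, plus strand: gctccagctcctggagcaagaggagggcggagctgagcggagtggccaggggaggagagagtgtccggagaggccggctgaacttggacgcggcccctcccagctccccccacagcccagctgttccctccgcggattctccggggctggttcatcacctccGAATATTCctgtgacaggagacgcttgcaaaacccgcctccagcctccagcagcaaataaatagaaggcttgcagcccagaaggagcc
HSPD1, chr2:197499841-197500090, minus strand: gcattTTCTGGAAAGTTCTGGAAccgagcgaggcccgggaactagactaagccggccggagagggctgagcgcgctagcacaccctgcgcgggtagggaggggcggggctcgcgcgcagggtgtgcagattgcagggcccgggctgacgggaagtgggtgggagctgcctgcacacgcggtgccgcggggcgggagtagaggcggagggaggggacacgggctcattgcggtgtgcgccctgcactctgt
HSPE1, chr2:197500129-197500378, plus strand: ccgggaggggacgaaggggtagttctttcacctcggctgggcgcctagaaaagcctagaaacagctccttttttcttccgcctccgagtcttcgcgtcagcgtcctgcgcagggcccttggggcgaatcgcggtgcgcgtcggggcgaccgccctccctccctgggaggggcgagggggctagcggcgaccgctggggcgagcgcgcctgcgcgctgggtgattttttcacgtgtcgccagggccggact

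The HSPD1 window was the only 1 of the 9 with a 3-unit match. The match runs over 4 units and 18 bases, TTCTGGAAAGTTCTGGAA, from 197500068 to 197500085 on chromosome 2. HSPD1 and HSPE1 are transcribed away from each other, and these start sites lie 539 bases apart, at 197499840 and 197500379. The element lies between them, 228 to 245 bases before the HSPD1 start and 294 to 311 bases before the HSPE1 start, which puts it 44 bases outside the HSPE1 window. RefSeq has a further HSPD1 start at 197500274, whose window held no match and from which the element lies downstream.

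HSPB1 held a 2-unit match, GAAGGTTC, at positions -182 to -175, counted from its start. HSPB8 held GAATATTC at positions -88 to -81 and GAAGTTTC at positions 5 to 12. No match of these letters was found in the windows of HSPH1, HSPA2, HSPE1 or HSPA12A. Of all 35116 RefSeq windows, 6.77% held GAANNTTC, 7.74% held TTCNNGAA and 0.49% held the 3-unit element. By gene, the 3-unit element was found in 9 of the 1610 listed genes with a window (0.559%), against 166 of 27305 RefSeq genes with a window (0.608%). The listed genes thus held it at about the share of all genes. Beside HSPD1, the most abundant of the 9 was MRPL51, a mitochondrial ribosomal protein, at 61.02 in the wild-type and 162.85 in the knockout library.

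**Figure D1:**
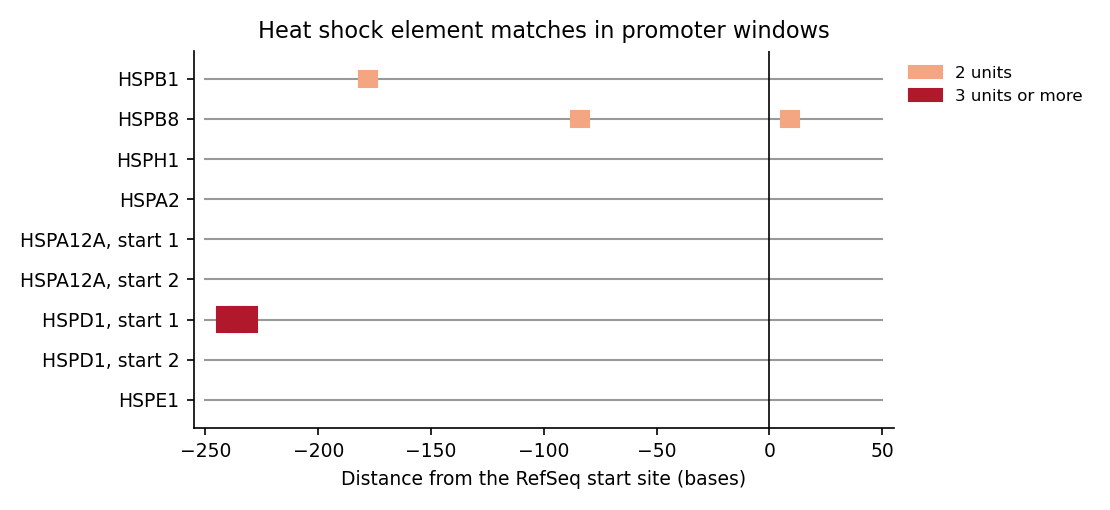
Matches to heat shock elements in the 9 promoter windows of the 7 genes, by distance in bases from the RefSeq start site (vertical line), with 2-unit matches in pale orange and matches of 3 or more units in red. Matches lie in the windows of HSPB1, HSPB8 and the HSPD1 start nearer to its coding sequence, and HSPD1 alone has 3 units or more.

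The members spanned more than 3 orders of magnitude in level, and their order was the same in both libraries. Levels are the authors' expression values, whose unit is not named and which are taken as scaled for gene length and depth. HSPB1 came first, followed by HSPD1, HSPE1, HSPH1, HSPB8, HSPA2 and HSPA12A. The ratio of knockout to wild type ran in the reverse order among the first 5, with HSPB1 lowest and HSPB8 highest, while HSPA2 and HSPA12A lay between. No error can be put on neighbours in the order of levels, since each value is from 1 library. In bulk RNA, fewer cells with a transcript and less of it per cell cannot be told apart.

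**Figure D2:**
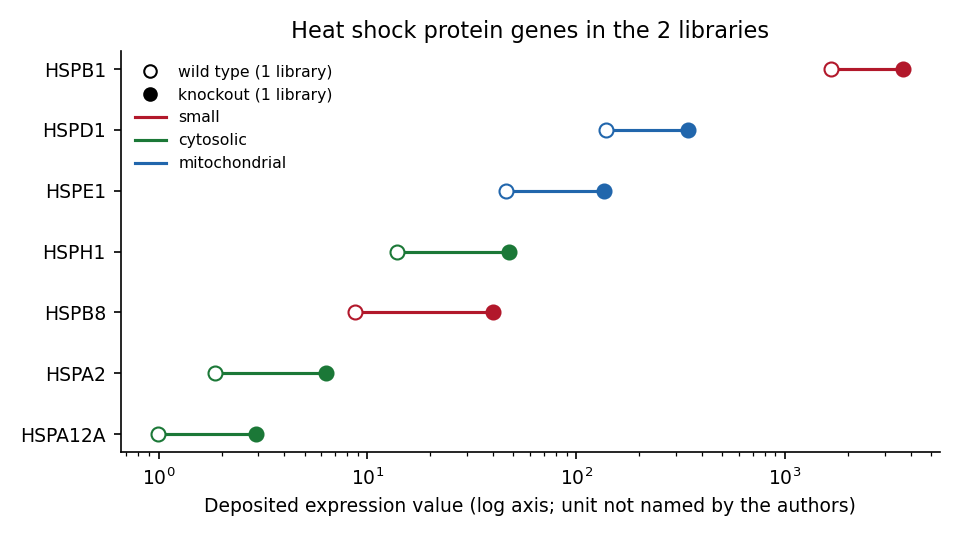
Deposited expression values (log axis) of the 7 genes in the wild-type library (open) and the knockout library (filled), 1 library each, coloured by class. HSPB1 lies highest, at 1668.64 and 3653, and HSPA12A lowest, at 0.99 and 2.92, and the order of the genes is the same in both.

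HSPB1 encodes HSP27, a small heat shock protein that caps actin filaments and restrains apoptosis. Its value was 1668.64 in the wild-type library, the highest wild-type value of the table, and 3653 in the knockout library, the third highest there. It was covered by 23475 and 59402 reads. The ratio in the authors' deposited table was 2.19, and only 13.0% of listed genes had a lower ratio. The read-count fold, the ratio of reads after scaling for the difference in depth, was 2.19 with a 95% counting interval of 2.16 to 2.22. That interval covers counting error only and leaves out the spread between cultures. In absolute terms the HSPB1 value was 1984.36 units higher in the knockout library, the largest difference among the 7 members. The next largest among the members was 203.02, for HSPD1. HSPB1 made up 88.8% of the summed value of the 7 genes in the wild-type library and 86.4% in the knockout library. HSPB1 lies on the plus strand of chromosome 7 from 76302544 to 76304295 (GENCODE 29, GRCh38) and has 3 exons.

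HSPB8 encodes HSP22, a small heat shock protein that works with BAG3 and HSP70 to send misfolded proteins to autophagy. Its value was 8.72 in the wild-type library and 40.09 in the knockout library, from 279 and 1482 reads. Of the members it had the highest deposited ratio, 4.60, and 62.7% of listed genes lay lower. The read-count fold was 4.60 (95% counting interval 4.04 to 5.24). It lies on chromosome 12 from 119178642 to 119221131 on the plus strand, with 3 exons. HSPB8 overlaps an antisense gene and, on its own strand, a processed pseudogene, neither of which was listed. BAG3, the partner of HSPB8, was listed too, at 18.26 and 46.06, with a read-count fold of 2.53 (2.32 to 2.75).

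The 2 small heat shock proteins thus stood at opposite ends of the family. The HSPB8 fold was 2.10 times the HSPB1 fold, with a 95% counting interval of 1.84 to 2.40. This ratio of folds does not depend on how the libraries are scaled to each other. HSPB1 nevertheless remained far more abundant, as the HSPB8 value was 0.00523 of the HSPB1 value in the wild-type library and 0.011 of it in the knockout library.

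HSPD1 encodes the mitochondrial chaperonin HSP60. Its value was 138.55 in the wild-type library and 341.57 in the knockout library, from 5145.51 and 14662.81 estimated reads. The deposited ratio was 2.47, above that of 27.1% of listed genes, and the read-count fold was 2.47 (2.39 to 2.55). HSPE1, its co-chaperonin HSP10, was at 46.16 and 136.44, from 688.43 and 2352.06 estimated reads. Its deposited ratio was 2.96 and its read-count fold 2.96 (2.72 to 3.23). Both genes were among the more abundant of the table, at ranks 42 and 161 of the wild-type values.

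The chaperonin genes moved by unequal folds. The HSPE1 fold was 1.20 times the HSPD1 fold (95% counting interval 1.10 to 1.32), so that HSPE1 stood at 0.333 of the HSPD1 value in the wild-type library and at 0.399 in the knockout library. On chromosome 2, HSPD1 is annotated with 12 exons on the minus strand (197486581 to 197516737) and HSPE1 with 4 on the plus strand (197499994 to 197503457). In GENCODE 29 the genes overlap on opposite strands, and the sources used here do not say whether reads were counted by strand. GENCODE also names 17 pseudogenes after HSPD1 and 26 after HSPE1, against 2 after HSPB1 and 0 after each of the other 4. The counts of HSPD1 and HSPE1 were not whole numbers, as in 5 of the 7 members and 46.4% of listed genes. How reads shared with such copies were apportioned is not stated, so both values are uncertain in that respect. The read-through gene HSPE1-MOB4 and MOB4, which overlap this locus, were not listed.

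HSPH1 encodes HSP105, an HSP110 protein that serves HSP70 as a nucleotide exchange factor. Its value was 13.82 in the wild-type library and 47.65 in the knockout library, from 748.26 and 2900.87 estimated reads. The deposited ratio of 3.45 lay near the middle of the table, above 52.2% of listed genes. The read-count fold was 3.36 (3.10 to 3.64). HSPH1 has 18 exons and is annotated on chromosome 13 (31134974 to 31162388, minus strand). Its fold was 1.53 times that of HSPB1 (1.41 to 1.67) and 1.36 times that of HSPD1 (1.25 to 1.49). Against HSPE1 the ratio of folds was 1.13 (1.01 to 1.28).

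HSPA2 and HSPA12A were the members with the lowest values. HSPA2, an HSP70 best known from spermatogenesis, was at 1.86 in the wild-type library and 6.3 in the knockout library, from 82.67 and 323.78 estimated reads. Its read-count fold was 3.39 (2.65 to 4.35) and equalled its deposited ratio, an equality that is no separate check given the scaling. HSPA12A, a divergent HSP70 relative, was at 0.99 and 2.92, from 119.19 and 331.05 estimated reads. Its deposited ratio was 2.95 but its read-count fold 2.40 (1.95 to 2.99), and it was the only member whose interval reached below 2. Its reads per unit of expression value had a knockout to wild-type ratio of 0.942, while the median over 1133 well-covered genes was 1.155 and the other 6 members lay between 1.124 and 1.156. The deposited value of HSPA12A therefore differs from its read count between the libraries. HSPA2 lies on chromosome 14 from 64535905 to 64546173 on the plus strand, and HSPA12A on chromosome 10 from 116671192 to 116850236 on the minus strand. Each overlaps an antisense gene that was not listed. HSPA12A also overlaps ENO4 and a processed pseudogene, both on the opposite strand and neither listed.

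**Figure D3:**
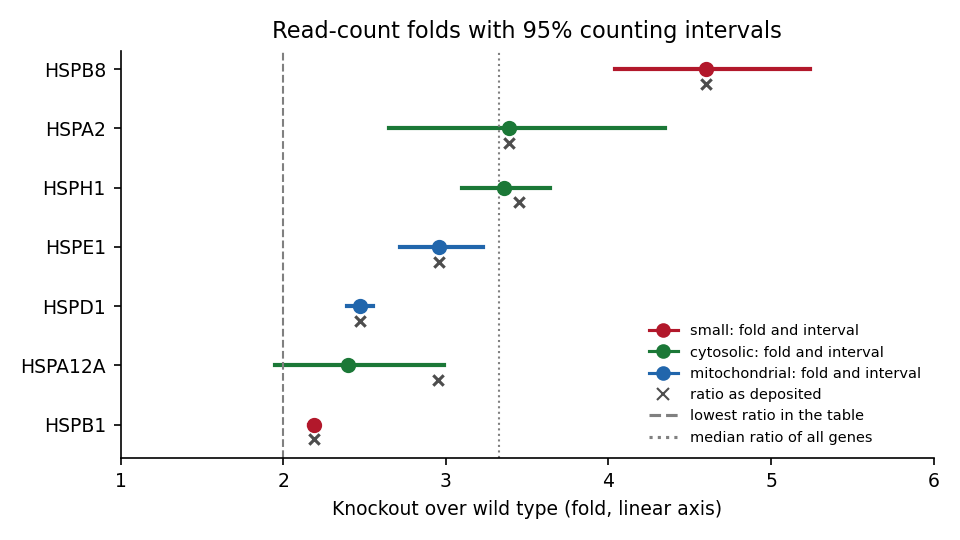
Read-count folds of knockout over wild type (points, linear axis) with 95% counting intervals (bars), coloured by class, and the ratio as deposited (crosses), for 1 library per genotype. HSPB8 lies highest at 4.60 and HSPB1 lowest at 2.19, the dashed line marks the table's limit of 2 and the dotted line the median ratio of all listed genes, 3.33.

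By class, the values of the 2 small heat shock proteins summed to 1677.36 in the wild-type library and 3693.09 in the knockout library, a ratio of 2.20 that HSPB1 sets. The mitochondrial genes summed to 184.71 and 478.01, a ratio of 2.59, and the cytosolic genes to 16.67 and 56.87, a ratio of 3.41. Without HSPB1, the other 6 genes summed to 210.10 and 574.97, a ratio of 2.74. The classes did not separate by ratio, since the deposited ratios ran from 2.19 to 4.60 among small, 2.95 to 3.45 among cytosolic and 2.47 to 2.96 among mitochondrial members. Of the 21 pairs of members, 16 had folds whose ratio excluded 1 in its 95% counting interval, with no adjustment for the number of pairs. The share over pairs of all listed genes was not computed, so this count says nothing particular to the family. Among these 16, HSPA2 over HSPD1 was 1.37 from reads but 1.04 from expression values with a pseudocount of 1, and HSPA2 over HSPB1 was 1.55 and 1.17. The 5 pairs with 1 inside the interval were HSPA12A against HSPB1, HSPD1 and HSPE1, and HSPA2 against HSPH1 and HSPE1. For these pairs a difference was not detectable at this depth, as the interval of HSPA2 over HSPH1 ran from 0.78 to 1.31.

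Against the table as a whole the family was ordinary in its ratios. On the log2(value + 1) scale, which understates the change of low genes, 6 of the 7 members reached 2-fold, beside 80.6% of all listed genes. The exception was HSPA12A at a log2 ratio of 0.98. At 4-fold, 1 of 7 passed, HSPB8 at a log2 ratio of 2.08, beside 21.3% of all listed genes. The lower limit of the counting interval lay above 2 for 6 of 7, beside 76.5% of all. The median log2 ratio was 1.35 for the members and 1.33 for all listed genes. These shares are near the background, and the range of the members, 0.98 to 2.08, lay well inside that of the table, which reached 11.58. Centring on the median of the listed genes left 0 of the 7 at 2-fold, beside 13.6% of all listed genes. On this scale HSPB1, HSPD1 and HSPA12A lay below the median gene. By the ratio as deposited, HSPE1 at 2.96 also lay below the median of all listed genes, 3.33. The median deposited ratio of the members was 2.96. The luminal breast markers TFF1, TFF3 and EPCAM, 3 of the 10 on the list, were listed as well and gave a sum of 150.36 for the wild type and 6467.66 for the knockout. TFF1 was at 0.94 and 5920.23, TFF3 at 3.68 and 127.85 and EPCAM at 145.74 and 419.58. Of 4 basal keratinocyte markers, SFN was listed, at 69.09 and 159.55. Fibroblast, leukocyte and endothelial markers gave 0 listed genes each. The part of any difference in cell identity in the heat shock values was not tested.

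**Figure D4:**
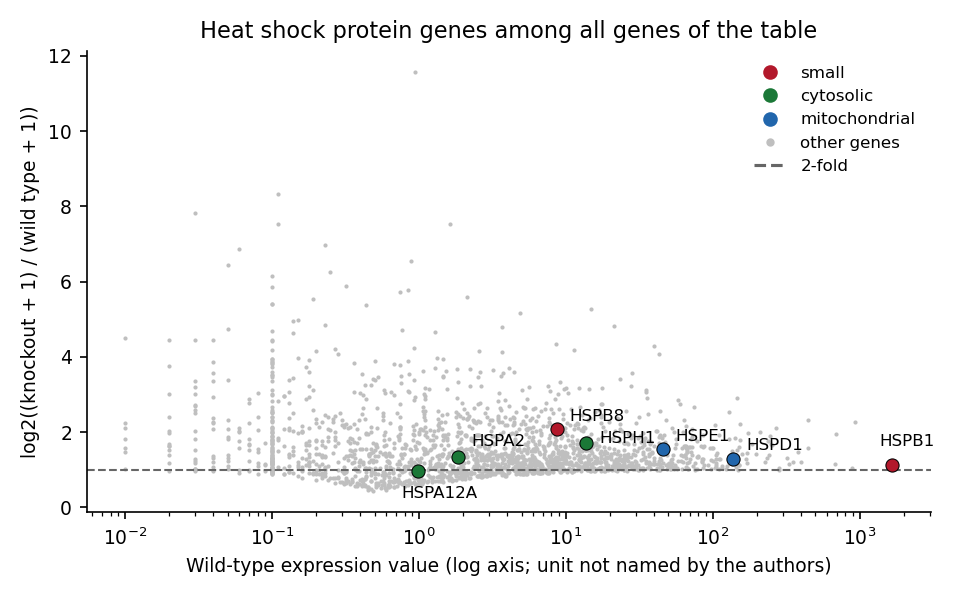
Log2 ratio of knockout to wild type, log2((knockout + 1) / (wild type + 1)), against the wild-type expression value (log axis) for all 2046 genes of the table (grey) and the 7 heat shock protein genes (coloured by class). The 7 genes lie between 0.98 and 2.08, within the bulk of the table, and HSPB1 has the highest wild-type value of all.

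Among listed genes, those nearest in both values over the 2 libraries were given by the distance in log2(value + 1). For HSPD1 they were SPINT2, a protease inhibitor (137.13 and 360.75 in wild type and knockout, distance 0.08), and DAD1, a subunit of the oligosaccharyltransferase (146.62 and 321.72, distance 0.12). For HSPH1 they were SCCPDH (distance 0.05) and YIF1B (distance 0.07). HSPB1 had no close neighbour, as FTH1, the ferritin heavy chain, lay at a distance of 0.90. With 2 libraries such nearness only states similar values.

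The remaining chaperone system was read from fixed lists. Of 33 human genes of the heat shock protein families, the 7 members were listed, namely 2 of 10 small, 3 of 13 cytosolic HSP70 and HSP110 and 2 of 4 mitochondrial genes. Listed were 0 of 2 cytosolic HSP90 genes and 0 of 4 endoplasmic reticulum genes. For comparison, 10.0% of RefSeq protein-coding genes were listed, silent ones included. The stress-inducible HSPA1A and HSPA1B and the constitutive HSPA8 were not among the listed genes and were not analysed here. The same holds for HSP90AA1, HSPA9, HSPA5 and the other family members not named, and whether they were lower, alike or filtered out is not known. The nearest protein-coding genes on either side of each member were also looked up, leaving out those that overlap that same member. None of these 13 genes was listed. They include MOB4, the neighbour of HSPE1, which overlaps HSPD1.

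The partners of HSP70 were listed at shares near that of protein-coding genes, 10.0%. Of 41 J-domain proteins, which deliver clients to HSP70, 5 were listed and 3 of these reached 2-fold, as did 80.6% of all listed genes. DNAJC12 was at 0.74 in the wild-type library and 91.25 in the knockout library, with a read-count fold of 122 (72.6 to 224) from 14 wild-type reads. DNAJA2, a general HSP70 partner, was at 24.77 and 50.12 with a fold of 2.02 (1.89 to 2.17), near the table's limit. Of 12 exchange factors and related partners, BAG2 and BAG3 were listed, with BAG2 at 3.19 and 14.59 and a fold of 4.60 (3.71 to 5.75). None of 15 HSP90 co-chaperones and none of 14 mitochondrial folding factors and proteases was listed, where 10.0% of protein-coding genes were. Whether those genes were lower, alike or filtered out is not known. Of 17 HSF factors and HSF1 target genes outside the family, 2 were listed, BAG3 and the ubiquitin gene UBB, at 333.32 and 747.04 with a fold of 2.21 (2.14 to 2.28). HSF1 itself and DNAJB1, a sensitive target of it, were not listed.

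Other folding machines were read in the same way. Of 14 genes of the cytosolic chaperonin TRiC and its partner prefoldin, 3 were listed and all 3 reached 2-fold, beside 80.6% of all listed genes, with a median log2 ratio of 1.26. CCT7, a TRiC subunit, was at 97.82 and 236.21, a fold of 2.41 (2.32 to 2.52) close to that of HSPD1. PFDN4, a prefoldin subunit, was at 17.61 and 168.06 with a fold of 9.62 (8.65 to 10.7). Of 19 endoplasmic reticulum folding and stress genes, only the disulfide isomerases PDIA6 (66.33 and 201.92) and PDIA4 (45.89 and 104.61) were listed. The proteasome, which degrades what chaperones cannot refold, had the most listed genes of these lists, 12 of 31. Of RefSeq protein-coding genes, silent ones included, 10.0% were listed. All 12 proteasome genes reached 2-fold, beside the same 80.6% of listed genes, with a median log2 ratio of 1.53 against 1.33 for all listed genes. PSMD6, a subunit of the regulatory particle, was at 43.2 and 741.02 with a fold of 17.1 (16 to 18.3), and PSMA7, a core subunit, at 109.81 and 421.78 with a fold of 3.84 (3.65 to 4.05). These counts are of genes in a table limited to higher values, and no enrichment was tested.

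**Figure D5:**
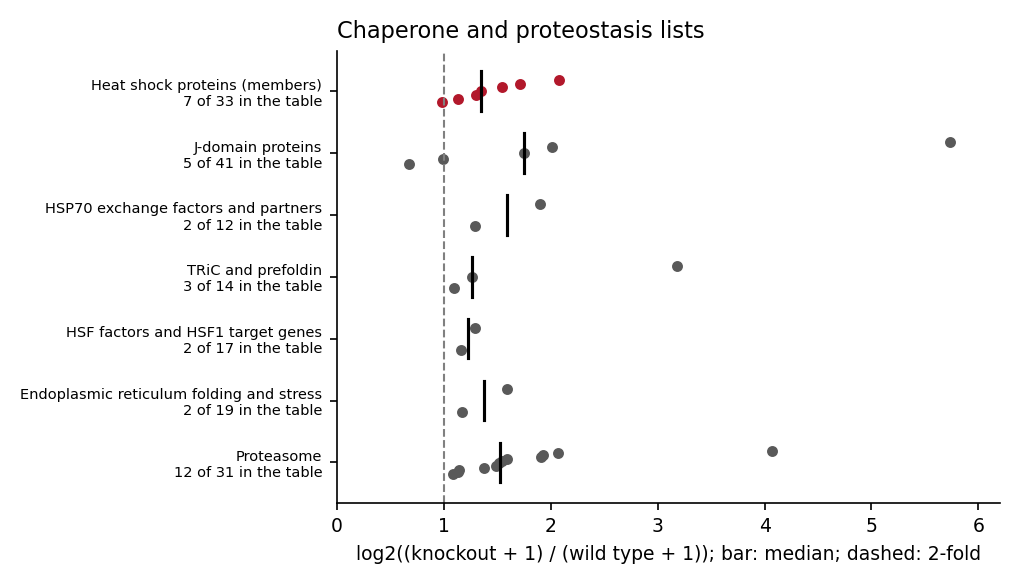
Log2 ratios of knockout to wild type, log2((knockout + 1) / (wild type + 1)), for the heat shock protein genes (red) and for the listed genes of 6 chaperone and proteostasis lists (grey), with the median as a bar and 2-fold as a dashed line. The heat shock protein genes span 0.98 to 2.08, DNAJC12 and PSMD6 lie at 5.73 and 4.07, and 12 of 31 proteasome genes are present.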

How the data were processed

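RNA of 1 wild-type and 1 knockout library of MDA-MB-231 cells was analysed from a table the authors deposited. CASAVA 1.4, HISAT2 2.0.4 and the build GRCh38.p12 appear in the submitters' processing notes. The sources used here do not give the counter, the annotation or the use of strand. For each gene the authors made an expression signal, taken here as scaled for gene length and depth, and the ratio of knockout to wild type. The authors also made for each gene an estimated count of reads, taken here as not normalized. The file headers name the expression values, the read counts and the ratio, but no scaling of them. The deposited log2 columns have crossed headers in 2046 of 2046 genes and were not used.

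From these, log2((knockout + 1) / (wild type + 1)) was formed for genes whose higher value was at least 1. Read-count folds were the ratio of counts over 1.155. This factor is how many more reads a unit of expression stood for in the knockout library, as a median across 1133 genes with 100 or more wild-type reads. Their 95% intervals are exact conditional binomial intervals on counts rounded to whole numbers, and ratios of 2 folds have exact conditional odds-ratio intervals (SciPy 1.17.1). Reads are not independent molecules. On simulated counts of 200 genes, 95.2%, 94.5% and 95.5% of intervals held folds of 2, 3 and 5, and 94.0% held a ratio of folds of 2. These counts were drawn with independent counting error and a known scale, as the intervals assume. The simulation therefore checks only how the intervals were computed, not their fit to these reads. The number of sample columns not matched was 0. Loci are from GENCODE 29. Members and lists were chosen with earlier results of these data known. Named beside all members are the 2 listed genes with the highest knockout value in each list and the 2 nearest genes of HSPB1, HSPD1 and HSPH1, of which 1 is not reported here. MRPL51, TFF3 and genes named as not listed were added after values were seen. Alternatives covered the pseudocount, filter, fold limit, centring and measure.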

Additional observations from a re-analysis of the deposited data

How the results depend on the processing

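Of the 7 heat shock protein genes, 6 were at least 2-fold higher on the log2(value + 1) scale. That number was 1 with a fold limit of 4, beside 21.3% of all listed genes. It was 0 after centring on the median of all listed genes, beside 13.6%, and this centring takes a table limited to higher values as a shift between libraries. Under this centring the median log2 ratio of the members fell from 1.35 to 0.02, and HSPB1, HSPD1 and HSPA12A lay at -0.20, -0.03 and -0.35. With pseudocounts of 0.1 and 5 the number was 7 and 5, beside 98.3% and 41.3% of all listed genes. With a mean of at least 5 over both libraries it was 5 of 5 members kept, beside 91.8%. Read counts, scaled by a factor from the deposited values, gave 7, beside 97.1%, and removing the filter changed nothing. The ratio as deposited, added after seeing the data, gave 7, beside 100%. The fold of HSPB8 over that of HSPB1 was 2.10 from reads and 1.93 from expression values with a pseudocount of 1. On that change, 3 of the 21 pairs left their counting interval, HSPA2 over HSPD1 (1.37 to 1.04), over HSPB1 (1.55 to 1.17) and over HSPE1 (1.15 to 0.88), and the pseudocount lowers the ratio of low genes such as HSPA2. No paired analysis was possible because each genotype has 1 library, and for the same reason no library could be left out. Under 100 wild-type reads stood behind HSPA2, whose interval is the widest of the 7.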
